A study of Rattus norvegicus with 20 samples.

Results

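The microRNAs (miRNAs) of rat dorsal root ganglia (DRGs) were compared between nerves that had been released from entrapment and nerves that had been cut. The comparison used 6 of the 20 arrays of the series, chosen by their titles: 3 DRG arrays of decompression and 3 DRG arrays of denervation. All animals were male Sprague-Dawley rats, and the L4-L6 DRGs were taken. Denervated rats had the right sciatic nerve cut and part of it excised 6 months before harvest, and its stump was tied off and buried in thigh muscle so that axons could not regrow to the target. In the decompression group a non-constrictive silastic tube lay around the intact nerve for 6 months, was then taken off, and the DRGs were harvested 3 months after its removal. The groups therefore differed in the kind of injury, in the release, and in the time since the first operation, and these cannot be told apart. No sham array entered the comparison, so no value below says which group departed from uninjured DRGs. The Methods name 3 rats per group, and the labels give no pooling, so p-values measure the spread between these arrays. The 3 DRG arrays of rats whose tube was left in place for 6 months (entrapment) were set beside them.

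A miRNA is a short RNA that represses messenger RNAs by pairing to them, mainly through bases 2 to 8 from its 5′ end, the seed, so that miRNAs with 1 seed share many targets. DRGs hold the cell bodies of sensory neurons, wrapped by satellite glia, together with Schwann cells, blood vessels and immune cells. After a nerve is cut these neurons change their gene expression for growth and survival, and miR-21, miR-221/222 and the miR-34 family are among the miRNAs known to respond to injury in various tissues. In such a bulk tissue, fewer cells of a type and less RNA per cell cannot be told apart.

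The mature sequences below (RefSeq, GRCr8) are those of miRNAs described further on, written 5′ to 3′ with the seed in capitals. The first were lower after decompression than after denervation and were detected on every denervation array. Of these, miR-190 was detected on no decompression array. It was tested only through the denervation arrays, which left it little room to be anything but lower.
miR-21: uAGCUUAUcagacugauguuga
miR-222: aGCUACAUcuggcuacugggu
miR-221: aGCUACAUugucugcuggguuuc
miR-9: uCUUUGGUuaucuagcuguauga
miR-212: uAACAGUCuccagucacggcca
miR-126*: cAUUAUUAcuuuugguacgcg
miR-190: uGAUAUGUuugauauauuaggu
The next were higher after decompression, except miR-34c, which shares the seed of miR-34a and miR-34b and did not pass the test.
miR-34a: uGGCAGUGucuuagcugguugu
miR-34b: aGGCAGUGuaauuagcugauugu
miR-34c: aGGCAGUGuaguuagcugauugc
miR-551b: gGCGACCCauacuugguuucagu
miR-183: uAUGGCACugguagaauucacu
The last are families in which miRNAs with 1 seed did not move alike.
miR-30c: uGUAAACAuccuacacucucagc
miR-30e: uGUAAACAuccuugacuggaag
miR-30a: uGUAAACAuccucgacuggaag
miR-32: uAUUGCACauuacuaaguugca
miR-92a: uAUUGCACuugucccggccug
miR-25: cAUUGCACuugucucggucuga
miR-322: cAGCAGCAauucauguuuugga
miR-15b: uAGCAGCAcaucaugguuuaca
miR-16: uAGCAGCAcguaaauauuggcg

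Each array measured 350 rat miRNAs. Between 214 and 227 of them were detected on the 3 denervation arrays and between 188 and 202 on the 3 decompression arrays, without overlap (exact permutation test, two-sided p = 0.1, the smallest that 3 against 3 arrays allow). The 75th percentile of the signal was 96.8 to 115 after denervation and 74.9 to 83.5 after decompression. Signals were scaled so that this percentile was 100 on every array, which raised decompression by 0.43 on the log2 scale against denervation, and values under 2.04, the level of the dimmest detected miRNAs, were set to 2.04. All signals below are on this scale, and differences are log2 of decompression over denervation. The 45 control features, spots for no rat miRNA, also differed between the groups. Of these, 19 were higher and 11 lower after decompression without overlap on the scaled values, and 16 and 16 on the unscaled values. The 20 with a clear signal differed by -0.65 to 0.83 after scaling, with a median of 0.37. The low end was 1 corner feature, and the next lowest was at -0.23. The high end was 1 series of similarly named controls at 0.77 to 0.83, and all others were at most at 0.59. Differences inside -0.65 to 0.83 are no larger than those of some features that hold no rat miRNA. Beyond that range lay 42 of the lower miRNAs and 1 of the higher, miR-551b. The files name no slide or scan that could be tested as a batch, so group and array handling cannot be told apart. In a second table of processed values the columns named for DRG entrapment and decompression equalled each other's scanner files up to a constant for each array. The scanner files' own labels were followed here, and with the processed columns as named 14 miRNAs were higher and 74 lower of 213 tested, or 18 and 68 after they were scaled in the same way, in place of the counts that follow.

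More miRNAs were lower than higher in the DRGs after decompression than after denervation. Of 217 miRNAs tested, 58 were lower, 26.7% of those tested, and 20 were higher, 9.22% (limma, Benjamini-Hochberg adjusted p under 0.05). This split depended on the scaling. There were 126 lower and 1 higher without scaling, 108 and 3 when arrays were scaled to the control features, 56 and 37 with cyclic loess, and 37 and 45 with quantile normalization. The lower group held miR-21, miR-222, miR-9, miR-212, miR-30c and miR-126*, and the higher group miR-34a, miR-34b, miR-183, miR-96, miR-124, miR-128 and miR-29a. The differences of the lower miRNAs ran from 0.22 to 3.70 in size with a median of 1.02, and those of the higher from 0.20 to 1.15 with a median of 0.45. At least 2-fold apart without overlap were 32 lower miRNAs, 14.7% of those tested, and 1 higher, miR-551b, 0.461%. The median difference over all 217 was -0.15. At an unadjusted p under 0.05 there were 68 lower (31.3%) and 27 higher (12.4%). Without overlap at any size were 84 lower (38.7%) and 38 higher (17.5%). All 58 lower and all 20 higher calls were among these, so a lack of overlap adds nothing to a call.

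The lower miRNAs were mostly dim ones. The tested miRNAs were divided into 4 classes of brightness. In the dimmest class 28 of 55 were lower and 0 higher, with a median difference of -0.89. In the brightest class 8 of 54 were lower and 7 higher, with a median of -0.0091. Of the 58 lower miRNAs, 12 were detected on no decompression array and 10 on only 1 or 2 of them, while all 20 higher miRNAs were detected on all 6 arrays. Among the 217, 13 had passed the detection filter through the denervation arrays alone, which leaves them little room to be anything but lower, and no miRNA had passed through decompression alone. The 118 miRNAs detected on none of the 6 arrays are not described.

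**Figure D1:**
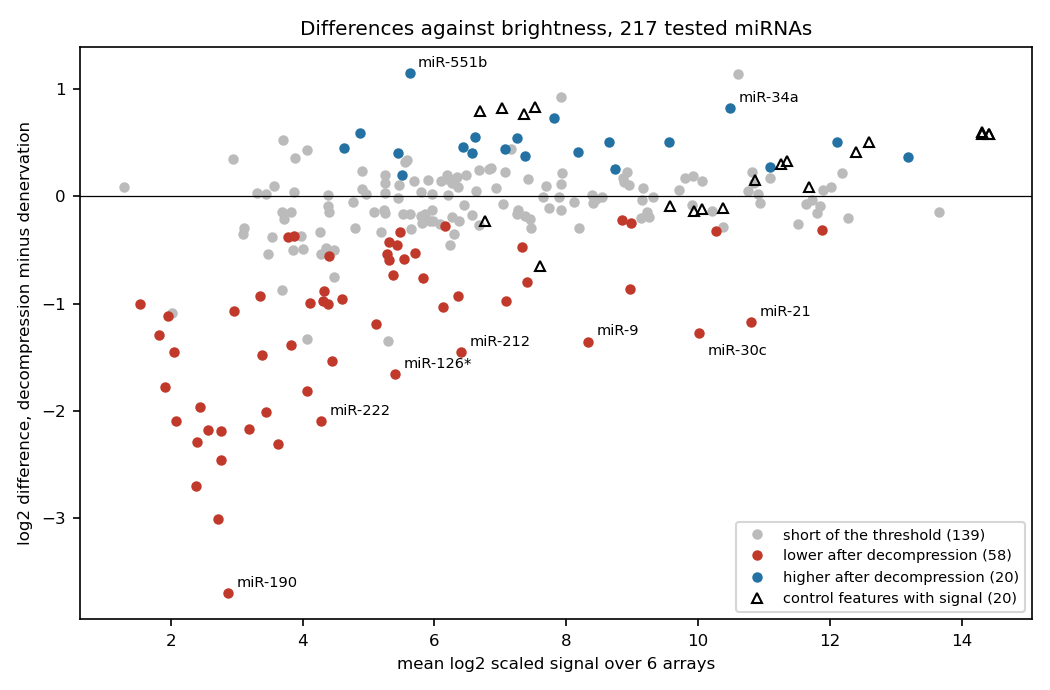
Log2 difference (decompression minus denervation) of each of the 217 tested miRNAs against its mean log2 scaled signal over the 6 arrays, with 58 lower miRNAs in red, 20 higher in blue, 139 short of the threshold in grey and the 20 control features with signal as open triangles. Red points spread downward at the dim end, where miR-190 lies at -3.70, while the blue points, apart from miR-551b at 1.15, lie within the range of the triangles.

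Among miRNAs known from nerve and tissue injury, miR-21, which is commonly induced in injured tissue, was lower after decompression. Its signals were 2739, 2627 and 2672 on denervation 1 to 3 and 1121, 1245 and 1203 on decompression 1 to 3. All denervation arrays lay above all decompression arrays. Decompression averaged 1190 ± 62.9 (SD, n = 3) and denervation 2679 ± 56.3 (SD, n = 3), a difference of -1.17 ± 0.11 (SE, adjusted p = 7.27e-05).

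miR-222 and miR-221, which share their seed and repress the cell cycle inhibitor p27, lie 543 bases apart on the X chromosome (GRCr8, plus strand, chrX:6022682-6022702 and chrX:6023246-6023268). miR-222 read 42.5, 39.7 and 38.1 on the denervation arrays and 11.7, 9.14 and 7.74 on the decompression arrays. It was detected on 1 of the latter, and differed by -2.10 ± 0.18 (SE, adjusted p = 6.95e-05). miR-221 read 64.7, 60.4 and 63.4 after denervation and 42.7, 43.3 and 44.8 after decompression. Both were lower without overlap, but the difference of miR-221, -0.53 ± 0.07 (SE, adjusted p = 0.00073), was smaller and lay within the range of the control features. Among those with a clear signal only the corner feature lay lower.

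Of the 3 tested members of the miR-34 family, which p53 induces, 2 were higher after decompression and 1 did not pass. miR-34a read 1028, 1166 and 1048 after denervation and 1901, 1849 and 1961 after decompression, a difference of 0.82 ± 0.10 (SE, adjusted p = 0.00031). The groups did not overlap, and the difference was just inside that of the control features, whose largest was 0.83. miR-34b read 27.6, 25.3 and 19.5 against 33.9, 36.1 and 37.9 (difference 0.59 ± 0.15 SE, adjusted p = 0.0173), and its neighbour miR-34c, with values of 16.7, 16.9 and 10.5 against 18.4, 17.7 and 22.3, did not pass (0.43, adjusted p = 0.128). Without scaling neither miR-34a nor miR-34b passed, at 0.39 and 0.16, and miR-34b was also short with control scaling (0.29) and when denervation 3, decompression 2 or decompression 3 was left out. Of the 9 tested injury miRNAs, 3 were lower (miR-21, miR-222, miR-221), 2 higher (miR-34a, miR-34b) and 4 short of the threshold, beside 26.7% lower and 9.22% higher of all tested, with a median of -0.15, close to that of all 217.

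miRNAs of neurons went both ways. miR-9, which acts in neural progenitors and neurons, read 519, 454 and 579 after denervation and 209, 200 and 196 after decompression. The lowest denervation array was well above the highest decompression array, and the difference was -1.35 ± 0.11 (SE, adjusted p = 6.95e-05). miR-212, whose gene is induced by the activity-dependent factor CREB, read 129, 164 and 131 against 58.2, 44.6 and 51.8. It too was lower without overlap (-1.45 ± 0.15 SE, adjusted p = 0.00013). miR-132, which lies beside miR-212 on chromosome 10 in GRCr8, was detected on no denervation or decompression array and was not tested.

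miR-124, the most neuron-restricted of the list, was higher after decompression. Its signals were 658, 629 and 611 after denervation and 945, 850 and 894 after decompression (difference 0.50 ± 0.08 SE, adjusted p = 0.00155). miR-128, another neuron-enriched miRNA, read 79.0, 80.6 and 83.0 against 121, 116 and 118 (0.55 ± 0.08 SE, adjusted p = 0.000938). Without scaling miR-124 was at 0.070 and miR-128 at 0.12, and neither passed there or with control scaling. Both differences lay within the range of the control features. miR-7a, found in neuroendocrine cells and neurons, was higher by 0.44 (adjusted p = 0.0394), a call that was lost without scaling, with control scaling and without denervation 1 or 2, entrapment 2 or any decompression array. Neither group overlapped the other in any of the 3. Of the 10 tested neuronal miRNAs 3 were higher and 2 lower, beside 9.22% and 26.7% of all tested, and 5 were short of the threshold, among them miR-9*, miR-138, miR-137 and miR-218, and their median was 0.13. Their summed signal was 3723 to 3934 on the denervation arrays and 3796 to 4224 on the decompression arrays.

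The cluster of miR-183, miR-96 and miR-182, transcribed in sensory neurons and sensory organs, was present on every array. miR-183 read 313, 345 and 351 after denervation and 469, 484 and 478 after decompression, without overlap (0.50 ± 0.08 SE, adjusted p = 0.00122). miR-96 read 1864, 1999 and 2112 against 2464, 2322 and 2435 (0.27 ± 0.08 SE, adjusted p = 0.0344). miR-182, which lies 3832 bases from miR-183 on the same strand of chromosome 4 in GRCr8, overlapped between the groups (331, 344 and 365 against 331, 302 and 364, difference -0.064, adjusted p = 0.628). Without scaling miR-183 was at 0.073 and miR-96 at -0.16, and neither passed. Nor did they pass with control scaling, where miR-96 was at -0.025. The call of miR-96 was also lost with quantile normalization and without denervation 1 or 2 or any one of the decompression arrays.

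**Figure D2:**
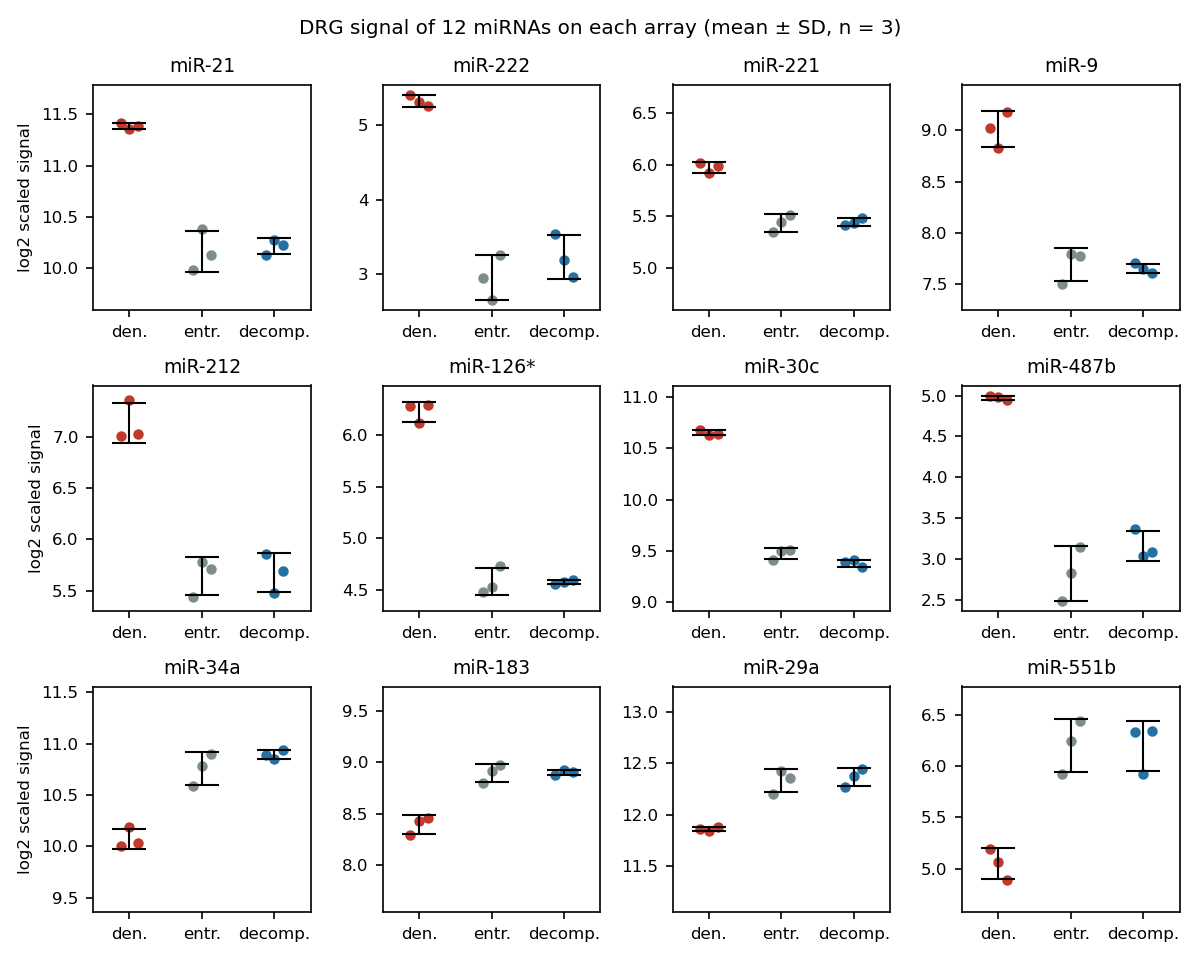
Log2 scaled signal of 12 miRNAs on each of the 9 DRG injury arrays, with points for arrays and bars for the mean ± SD of the 3 arrays of denervation (red), entrapment (grey) and decompression (blue). The vertical range differs between panels. In each panel the decompression points lie apart from the denervation points, below them for 8 miRNAs and above them for miR-34a, miR-183, miR-29a and miR-551b, and beside the entrapment points.

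The miRNA with the largest difference among the higher ones was miR-551b. It read 36.6, 33.5 and 29.7 after denervation and 80.6, 60.5 and 81.1 after decompression. The mean was 33.3 ± 3.46 (SD, n = 3) against 74.1 ± 11.8 (SD, n = 3), a 2.21-fold difference (log2 1.15 ± 0.17 SE, adjusted p = 0.000968), and of the 17 higher miRNAs named by rule it was the only one to pass under every alternative. miR-133b, best known from muscle, read 161, 201 and 166 against 286, 264 and 320 (0.72 ± 0.14 SE, adjusted p = 0.00429). Its difference lay within the range of the control features, and without scaling it was at 0.29 and did not pass. The other muscle miRNAs did not move with it. miR-1, miR-133a, miR-206 and miR-499 differed by -0.17, -0.22, -0.54 and -0.51 and did not pass, and miR-208 was detected on none of the arrays. miR-500 was higher by 0.46 (adjusted p = 0.00149), but did not pass without scaling (0.025) or with control scaling.

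The miR-29 family, which represses collagens, lay among the bright miRNAs. miR-29a read 3712, 3676 and 3771 after denervation and 4929, 5329 and 5564 after decompression (0.50 ± 0.08 SE, adjusted p = 0.00175). miR-29b read 8089, 8276 and 8371 against 10065, 10702 and 11089 (0.36 ± 0.08 SE, adjusted p = 0.00662). Both were higher without overlap, while miR-29c did not pass (0.12, adjusted p = 0.289). Neither miR-29a nor miR-29b passed without scaling, at 0.070 and -0.068, or with control scaling. miR-29b did not pass with quantile normalization either.

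Other seeds divided. The miR-30 family is broadly expressed, and its members miR-30c, miR-30e and miR-30a carry the same seed, GUAAACA. miR-30c read 1642, 1589 and 1596 after denervation and 673, 679 and 649 after decompression, without overlap and with little spread (-1.27 ± 0.06 SE, adjusted p = 2.58e-06). miR-30e, whose gene lies 2976 bases from 1 of the 2 miR-30c genes on chromosome 5 in GRCr8, read 510, 484 and 497 against 406, 432 and 438 (-0.22 ± 0.07 SE, adjusted p = 0.0468), and miR-30a differed by -0.083 (adjusted p = 0.388). The 95% confidence interval of miR-30c does not meet those of miR-30e and miR-30a. The call of miR-30e was lost without any one array except entrapment 1, and that of miR-30c was kept throughout. miR-30b-5p was lower as well (719, 663 and 649 against 377, 376 and 363, difference -0.86 ± 0.08 SE, adjusted p = 6.95e-05), and of the 7 tested members of the family 4 were lower, beside 26.7% of all tested, 3 short of the threshold and 0 higher. The fourth of the lower ones, miR-30e* (-0.27), lost its call without any one denervation array, entrapment 2 or decompression 1 or 2.

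In 2 of the 23 groups of tested miRNAs with 1 seed, members passed in opposite directions. With the seed AUUGCAC, miR-32 read 39.9, 35.3 and 35.7 after denervation and 16.7, 12.1 and 10.2 after decompression (-1.53 ± 0.17 SE, adjusted p = 0.000208), while miR-92a, of the growth-linked miR-17-92 cluster, read 73.2, 92.6 and 84.4 against 126, 104 and 100 (0.40 ± 0.12 SE, adjusted p = 0.0365). miR-25 was at 0.18 and miR-363 at -0.18, and neither passed. With the seed AGCAGCA, miR-322 read 171, 241 and 170 against 72.8, 119 and 106 (-0.98 ± 0.23 SE, adjusted p = 0.0108), and miR-15b read 122, 121 and 139 against 225, 181 and 154 (0.54 ± 0.16 SE, adjusted p = 0.0326). The neighbour of miR-15b, miR-16, differed by -0.068 and overlapped. The higher call of miR-92a was lost under 13 of the 26 alternatives, among them without denervation 1 or 3, entrapment 2, or decompression 1 or 2. That of miR-15b was lost under 11, among them without denervation 1 or 2 or decompression 1 or 2. The lower calls of miR-32 and miR-322 were kept under all.

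miR-322 belongs to a cluster on the X chromosome in GRCr8 (minus strand, miR-322 at chrX:137726198-137726219, miR-503 at chrX:137725899-137725921, miR-450a at chrX:137720985-137721006), whose miRNAs restrain the cell cycle. miR-503 read 16.9, 24.5 and 17.5 after denervation and 2.04, 4.94 and 7.93 after decompression, where it was detected on no array (-2.17, adjusted p = 0.0334). miR-450a read 11.2, 13.1 and 13.7 against 2.04, 2.72 and 3.89, again with no detection (-2.18, adjusted p = 0.00782). The other arm of miR-322, miR-322*, was lower by -1.39 (adjusted p = 0.0406). miR-542-3p and miR-542-5p from the same cluster were at -1.33 and -0.76 and did not pass (adjusted p = 0.0677 and 0.196). miR-503 and miR-450a had passed the detection filter through the denervation arrays alone, so they are given as values and not counted for the cluster. Of the other 4 miRNAs, miR-322 and miR-322* were lower, beside 26.7% of all tested. The call of miR-503 was lost without decompression 1 or 2, and that of miR-322* without any one denervation array or without decompression 1 or 2.

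The groups of miRNAs in which all tested members of a seed passed in 1 direction were small. Over all 217 tested, 26.7% were lower, 9.22% were higher and 139 miRNAs were short of the threshold. miR-26a and miR-26b, lodged in introns of phosphatase genes, were lower by -0.32 each (adjusted p = 0.0215 and 0.0195). The call of miR-26a was lost without any one denervation array or decompression 1 or 2, and that of miR-26b without denervation 1 or 3 or decompression 1 or 3. miR-221 and miR-222 were the other pair. All 8 tested miRNAs with the let-7 seed, abundant in mature neurons, were short of the threshold, from -0.26 for let-7f to 0.059 for let-7d. All 5 of miR-23, miR-24 and miR-27 were short as well, from -0.095 to 0.21. Of the 4 of the miR-181 family, miR-181c (-0.53, adjusted p = 0.0115) and miR-181d (-0.98, adjusted p = 0.0452) were lower, the latter not without any one array except entrapment 2 or 3.

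Both arms of a hairpin come from 1 precursor. The difference between the arms was not tested. Of all tested miRNAs 26.7% were lower. Of 20 hairpins with both arms tested, the star arm, the one that older names mark as minor, was lower in 10. In 7 of these the other arm did not pass, in 2 it was lower and in 1 it was higher. The 7 include miR-138*, which had passed the detection filter through the denervation arrays alone and had little room to be anything but lower. The star arm was the dimmer one of all 20 pairs, and dim miRNAs were more often lower here, as given above. miR-126*, from an intron of the endothelial gene Egfl7, read 77.9, 69.4 and 78.4 after denervation and 23.5, 23.8 and 24.1 after decompression (-1.66 ± 0.09 SE, adjusted p = 3.17e-06), whereas miR-126 overlapped (634, 575 and 714 against 556, 645 and 709, difference -0.012, adjusted p = 0.945). miR-29a* read 17.6, 19.4 and 18.6 against 2.97, 2.04 and 2.04, while miR-29a was higher. Only 1 decompression array detected miR-29a*, and 2.04 is the lower limit set on the values. miR-338*, whose partner miR-338 is abundant in myelinating glia, read 18.0 to 24.8 against 4.41 to 7.97 (-2.01 ± 0.46 SE, adjusted p = 0.0108), and miR-338 did not pass (-0.14, adjusted p = 0.279). miR-9 ran the other way, lower while miR-9* stayed at -0.022 (adjusted p = 0.881).

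**Figure D3:**
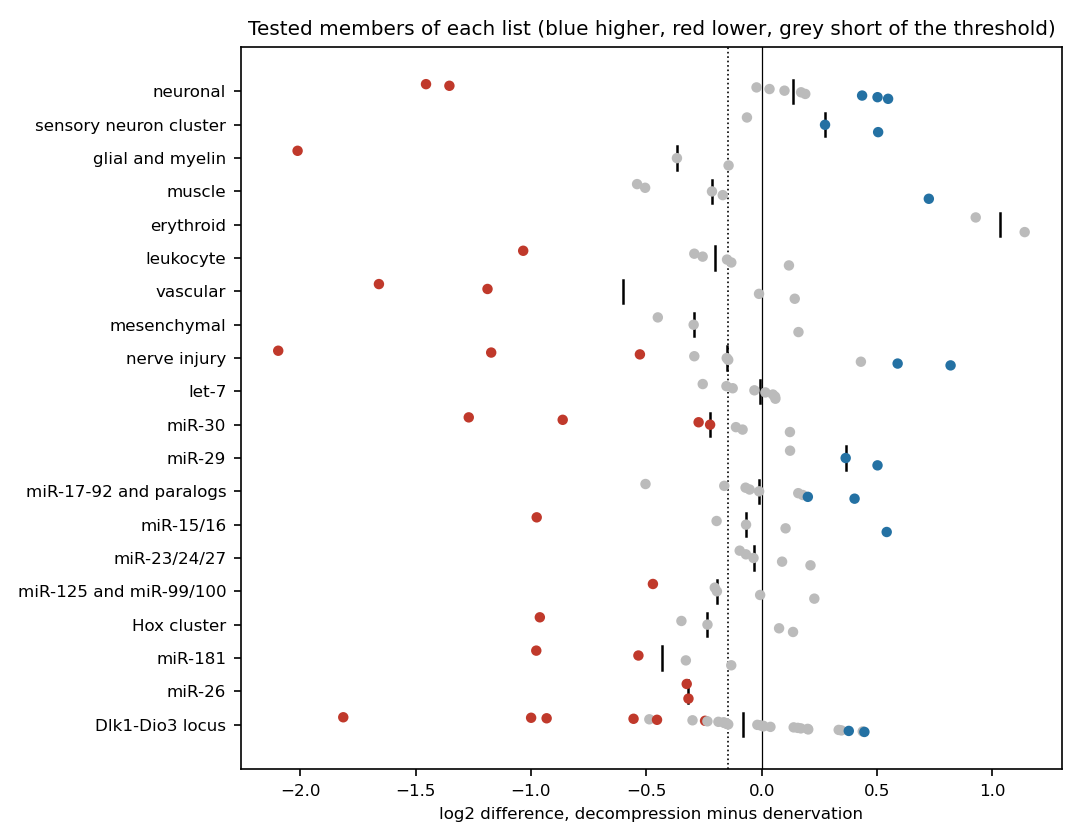
Log2 difference (decompression minus denervation) of each tested member of 20 lists of miRNAs, in blue where higher, red where lower and grey where short of the threshold, with the list's median as a vertical bar and the median of all 217 tested miRNAs as a dotted line at -0.15. Members of the neuronal, injury, miR-15/16 and Dlk1-Dio3 lists lie on both sides, while the let-7 and miR-23/24/27 lists are grey throughout.

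Markers of other cells did not move as sets. Beside the counts that follow, 26.7% of all tested miRNAs were lower and 9.22% higher. Of the vascular list, miR-126* and miR-145 (49.3, 53.8 and 53.9 against 19.2 to 28.5, difference -1.19 ± 0.13 SE, adjusted p = 0.00024) were lower, while miR-126 and miR-143, which shares its transcript with miR-145 in smooth muscle, overlapped. The summed signal of these 4 was 1712 to 1905 after denervation and 1519 to 2149 after decompression. Of the 6 tested leukocyte miRNAs only miR-146b, a brake on NF-kB signalling, passed (91.4, 108 and 101 against 56.3, 43.5 and 47.5, difference -1.03 ± 0.15 SE, adjusted p = 0.00108). The pan-leukocyte miR-142-3p and the myeloid miR-223 were at -0.15 and 0.12, with summed signals of the list of 1068 to 1639 and 1084 to 1320.

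The erythroid pair miR-451 and miR-144 varied more between arrays of a group than between groups. miR-451 read 1118, 675 and 1557 after denervation and 4296, 2030 and 1442 after decompression, and did not pass (1.14, adjusted p = 0.135). Their sum was 799 to 1810 after denervation and 1640 to 4970 after decompression, highest on decompression 1. The part of blood content in other differences was not tested. Of the 3 tested glial and myelin miRNAs 1 was lower, miR-338*, and of the 3 mesenchymal ones 0 passed. Beside these counts and those below stand 26.7% lower and 9.22% higher of all tested miRNAs. Of the 30 tested miRNAs on a list of the imprinted Dlk1-Dio3 locus, 6 were lower and 2 higher with a median of -0.082. The list is not complete. By position on chromosome 6 (GRCr8), 5 more tested miRNAs lay between its outermost members, of which miR-376a* (-1.29, adjusted p = 0.0114) and miR-379* (-0.997, adjusted p = 0.0165) were lower, and with them 8 of 35 were lower and 2 higher with a median of -0.15, that of all 217. The largest of these was miR-487b, with 31.8, 31.5 and 30.8 after denervation and 10.3, 8.19 and 8.45 after decompression (-1.81 ± 0.16 SE, adjusted p = 7.27e-05). miR-541 was lower too (29.2, 28.5 and 31.4 against 17.7, 13.1 and 14.1, adjusted p = 0.000958), and the other lower members of the list were miR-376c (-0.93), miR-409-5p (-0.56), miR-299 (-0.45) and miR-136 (-0.25), of which miR-299 and miR-136 were both short without denervation 1 or 3, entrapment 3 or decompression 1 or 2, miR-299 also without entrapment 2 and miR-136 without denervation 2. With quantile normalization miR-376c was at -0.092 and did not pass, and miR-409-5p was at 0.063. The higher members were miR-433 and miR-410 at 0.45 and 0.38, both short of the threshold without scaling and with control scaling. Both were also short without denervation 1 or 3 or decompression 2 or 3, and miR-433 without entrapment 3 or decompression 1. In the remaining lists, 1 of 5 tested miR-125 and miR-99/100 miRNAs was lower (miR-125a-5p, -0.47, adjusted p = 0.00183), 1 of 5 Hox cluster miRNAs was lower (miR-196c, -0.96, adjusted p = 0.0106, not past the threshold with quantile normalization), and 2 of 9 miR-17-92 miRNAs and paralogs were higher (miR-92a and miR-93). The call of miR-93 was lost without scaling, with control scaling and without any one array except entrapment 1.

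Presence or absence separated 13 miRNAs, each detected on all 3 denervation arrays and on no decompression array. No miRNA was detected the other way round. miR-190, lodged in an intron of the Talin 2 gene, read 27.3, 24.5 and 27.4 after denervation and was at 2.04 on every decompression array. On this scale the bound of its difference was 11.8-fold. miR-374 read 13.3, 14.1 and 12.3, with a bound of 5.89-fold. Because values at this lower limit have no spread, the adjusted p of these 2 (2.55e-09 and 1.97e-08) rests on that limit and is not a measure of replicate error in decompression. These bounds compare mean log2 signals, with the higher of the lowest detected signal and the miRNA's own signal taken on each decompression array. For 6 others the bounds were 4.99-fold (miR-346), 4.43-fold (miR-384-3p), 4.13-fold (miR-350), 3.88-fold (miR-138*), 3.12-fold (miR-339-3p) and 1.82-fold (miR-874). For miR-211, miR-450a, miR-503 and miR-340-5p the lowest detected signals changed no value, so no bound apart from the fitted fold is given, and their log2 differences were -2.31, -2.18, -2.17 and -0.38. miR-192 did not pass (adjusted p = 0.446). The calls were lost for miR-346 without decompression 1 or 3, for miR-350 without decompression 3 and for miR-340-5p without decompression 2. With quantile normalization miR-346, miR-503, miR-138*, miR-339-3p and miR-874 lost theirs, miR-874 at 0, and miR-340-5p was at 0.26 and did not pass. With a lower limit of 0.01 on the unscaled signal those of miR-346, miR-350, miR-450a and miR-503 were lost, and miR-346 and miR-503 also lost theirs without the detection filter. miR-346 did not pass in the processed columns as named. miR-211 shares its seed with miR-204, which overlapped between the groups (-0.29, adjusted p = 0.24). Dimmer miRNAs with detection in both groups included miR-125b* (-1.96, adjusted p = 0.000129) and miR-505 (-1.45, adjusted p = 0.000747). miR-505 was at 0 with quantile normalization and did not pass there or with the limit of 0.01.

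Of the 7 miRNAs that the study singled out in the DRGs against sham, miR-21, miR-9 and miR-324-3p were lower after decompression than after denervation. They were chosen on these arrays, so their direction is not independent evidence. For miR-21 the paper also reports a lasting rise in denervated DRGs against sham by real-time RT-PCR. It reports no such measurement of miR-21 in the DRGs after decompression. Of all tested miRNAs 26.7% were lower. miR-324-3p read 223, 244 and 205 after denervation and 135, 121 and 131 after decompression (-0.80 ± 0.09 SE, adjusted p = 0.000221). miR-320 (-0.34, adjusted p = 0.14), miR-672 (-0.23, adjusted p = 0.609), miR-466b (-0.27, adjusted p = 0.464) and miR-144 (0.93, adjusted p = 0.245) did not pass, and their groups overlapped.

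Release of the tube was then set against an entrapment that was not released. The decompression rats also had a second operation and 3 more months before harvest, and these cannot be told apart from the release. Decompression against entrapment had 0 of 217 miRNAs past the threshold, 0% of those tested (limma, smallest adjusted p = 0.288), with 6 higher (2.76%) and 2 lower (0.922%) at an unadjusted p under 0.05. The median size of the difference was 0.079, against 0.26 between decompression and denervation at the same standard error. Entrapment against denervation, which shares the denervation arrays, had 73 past the threshold, 33.6% of those tested, 55 lower (25.3%) and 18 higher (8.29%). Because the denervation arrays serve both comparisons, the values are given side by side and their likeness is not a result. For miR-21 the differences from denervation were -1.17 after decompression and -1.22 after entrapment, and decompression differed from entrapment by 0.050 (95% confidence interval -0.19 to 0.29). For miR-9 they were -1.35 and -1.32, with -0.037 between (-0.30 to 0.23). For miR-30c they were -1.27 and -1.18, with -0.091 between (-0.24 to 0.055). For miR-34a they were 0.82 and 0.68, with 0.14 between (-0.085 to 0.36). These intervals leave room for small differences between decompression and entrapment, and for dim miRNAs for large ones. miR-211 differed by -1.07 (-2.05 to -0.10) and miR-346 by -1.13 (-2.74 to 0.48), and neither passed.

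**Figure D4:**
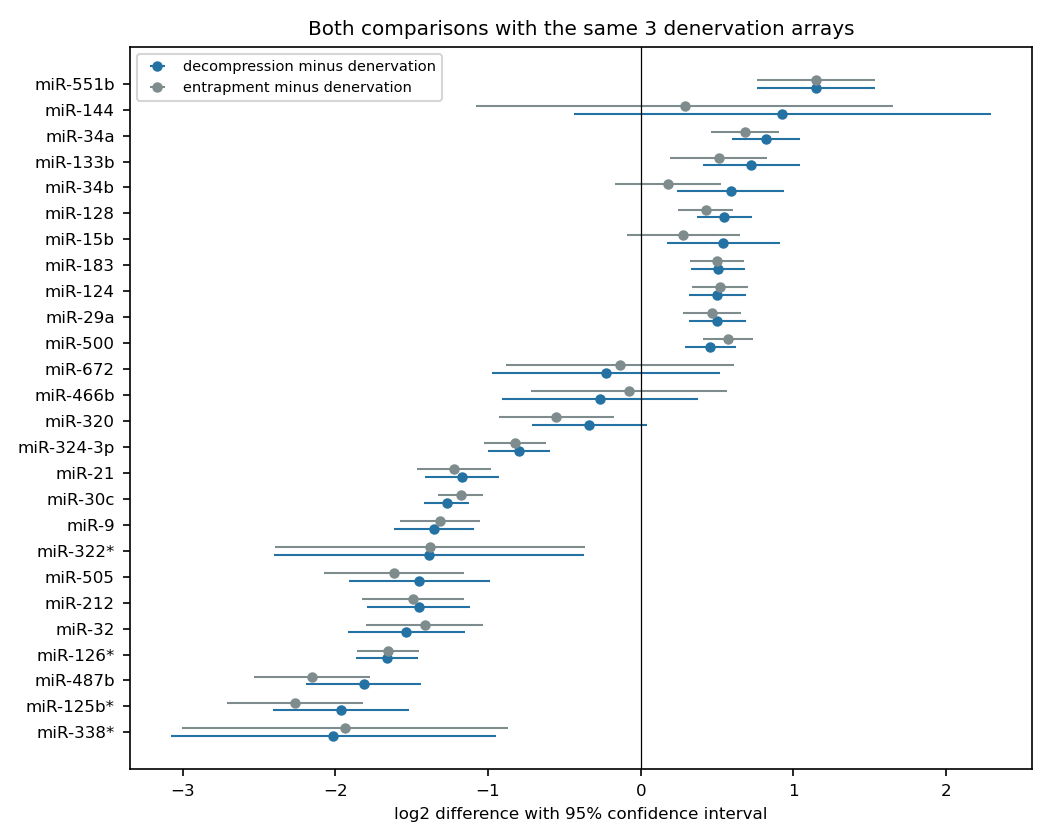
Log2 difference from the same 3 denervation arrays of decompression (blue) and entrapment (grey), with 95% confidence intervals from limma. Shown are the 10 largest calls in each direction detected on at least 2 arrays of each group, and the miRNAs the study singled out. The intervals of the pairs overlap throughout, and those of miR-144, miR-672, miR-466b and miR-320 for decompression include 0.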

How the data were processed

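Agilent rat miRNA arrays of 1 colour were used, each with total RNA of L4-L6 DRGs. The deposited scanner files hold the total gene signal of each miRNA, a linear intensity that Agilent Feature Extraction 9.5.3 (submitters' processing notes) summed over probes after background subtraction, with a detection call, and no normalization between arrays. The authors' table of processed values holds a signal per miRNA, that intensity over an array-wide constant, and its 10 soleus columns were not used. The labels describe amplification with Cy3-CTP and the Methods a ligation of pCp-Cy3. The Methods' rank-consistency LOWESS has no stated settings and was not repeated.

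Intensities of the 9 DRG injury arrays were scaled to the 75th percentile over all 350 miRNAs, values under 2.04 set to it, and log2 taken. A miRNA was tested when at least 3 of the 6 arrays compared detected it, with limma 3.58.1 (lmFit, eBayes) in R 4.3.3, fitted to all 9 arrays with the group as the term (6 residual and 2.09 prior degrees of freedom), two-sided, Benjamini-Hochberg at 0.05. The scripts were tested on simulated data. The number of arrays limits the precision. Control features were left out of the tests. The miRNAs, lists and tests were chosen with earlier results of these data known. Named by rule were the 10 largest calls in each direction without overlap and detected on at least 2 arrays of each group, miRNAs detected on all 3 arrays of one group and none of the other, those the study names for the DRGs, and list members past the threshold, or otherwise up to 3 members. Others, such as miR-29a*, miR-376a*, miR-379*, miR-542-3p and list members short of the threshold, were named after their values were seen.

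Sequences and coordinates came from RefSeq (GRCr8). Of the 350 miRNAs 276 were matched by name, of the 217 tested 188. Python 3.11.15 with matplotlib 3.10.9 made the plots.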

Additional observations from a re-analysis of the deposited data

How the results depend on the processing

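Of the 31 lower miRNAs named by rule that a decompression array detected, 19 passed under every alternative that tested them, miR-21, miR-222, miR-221, miR-9, miR-212, miR-30c, miR-126* and miR-32 among them, and of the 17 higher only miR-551b did. Counts are given here as higher and lower, against 20 and 58. Without scaling they were 1 and 126, at least 2-fold apart 0 and 49, with a median difference of -0.58 and 132 calls for entrapment against denervation. Scaling to the control features, chosen after seeing the data, gave 3 and 108, 0 higher at least 2-fold apart, a median of -0.44 and 110 entrapment calls. Quantile normalization gave 45 and 37, 5 and 16 at least 2-fold apart, and a median of 0.030, and 1 of the 58 lower miRNAs was then called higher. Cyclic loess gave 37 higher and a median of -0.044. Without the filter the median was -0.0058, with detection on all 6 arrays 35 were lower, 12 of them at least 2-fold apart, with a median of -0.068, and with a pseudocount of 10 the 2-fold counts were 0 and 16 and the median -0.12. The processed values by column name gave a median of -0.20, with 14 higher and 74 lower of 213. Their columns named for decompression equalled the scanner files labelled entrapment, so by those labels entrapment was set against denervation there. They are among the alternatives counted above. All 58 lower miRNAs were also lower without scaling and with control scaling. Both settings move the differences downward, as their medians show, so lower calls had little room to be lost there and this is no check of them. The same shift worked against the higher calls, so it bears on the 19 lower and 1 higher miRNAs that passed under every alternative.

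Leaving out 1 array gave 12 to 25 higher and 34 to 63 lower, 1 to 3 higher at least 2-fold apart, medians of -0.15 to -0.084 and 47 to 80 entrapment calls. The fewest were without denervation 1 (12 and 34, 47 entrapment calls) and denervation 3 (35 lower), and without decompression 2 or 3 there were 12 or 13 higher. Fewer arrays or miRNAs were tested there. With the replicate number as a block 17 were higher and 58 lower. Same-numbered arrays deviated together by 0.28, -0.083 and -0.12 (correlation), and arrays of unlike number by -0.33 to 0.33. These values are too few to show or exclude a pairing by number. Decompression against entrapment had 0 calls under every alternative run.

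Signs turned without scaling for miR-96 (-0.16), miR-214 (-0.27), let-7b (-0.42), let-7c (-0.37), miR-29b (-0.068), miR-92a (-0.029), miR-93 (-0.23), miR-23b (-0.22), miR-24 (-0.34) and miR-410 (-0.054). With control scaling they turned for miR-96 (-0.025), miR-214 (-0.14), let-7b (-0.28), let-7c (-0.24), miR-93 (-0.099), miR-23b (-0.088) and miR-24 (-0.21). With quantile normalization they turned for miR-192 (0.21), miR-340-5p (0.26), miR-320 (0.32), let-7b (-0.082) and miR-409-5p (0.063), with cyclic loess for miR-340-5p (0.066), miR-320 (0.022), let-7b (-0.041) and let-7c (-0.0092), and with the processed values for miR-93 (-0.024). Leaving out 1 array turned let-7b (range -0.027 to 0.097) and miR-23a (-0.13 to 0.0096). The causes were not tested. Signal over background limits the dimmest miRNAs, whose values at the lower limit have no order.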
